A study of Mus musculus with 3 samples.

Results

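The Kruppel-like factor genes Klf2, Klf3, Klf4, Klf6, Klf7, Klf9, Klf10, Klf12, Klf13 and Klf15 were examined in Runx1 chromatin immunoprecipitation and sequencing (ChIP-seq) of mouse spinal cord. These 10 genes were taken by symbol from a table of 21887 coding genes, and every region that the authors' annotated tables assigned to them was used. They received 2 of the 451 regions of replicate 1, 6 of the 1641 regions of replicate 2 and 17 of the 13194 regions of replicate 3. The 3 replicates form a single group of male C57BL/6J mice aged 8 to 10 weeks, with no other genotype, treatment or time to compare. For each, about 10 µg of nuclease-digested chromatin from 10 spinal cords, fixed in pools of 5 cords, was precipitated with 9 µg of a rabbit polyclonal Runx1 antibody. The cells were those of the homogenised cord, with debris removed and no sort described, and whether replicates share animals is not stated.

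Kruppel-like factors are zinc-finger transcription factors that bind CACCC boxes and GC-rich sequence through fingers at their C-terminal end, and they share this DNA-binding part with the Sp factors. Their differing N-terminal parts recruit different cofactors. Klf9, Klf10 and Klf13 recruit Sin3 corepressor complexes, Klf3 and Klf12 recruit the corepressor CtBP, and Klf2, Klf4, Klf6 and Klf7 act largely as activators. In the nervous system several of the family are known for control of axon growth, with Klf6 and Klf7 promoting it and Klf4 and Klf9 restraining it. Runx1 is a transcription factor of blood and myeloid cells, which in the cord include microglia.

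The libraries differed widely in how many regions were called, and replicate 3 had 29.3 times as many as replicate 1. Relative depth, estimated from the background levels behind the authors' folds, was 1, 1.07 and 1.52 in replicates 1, 2 and 3, and read totals are not stated. Among marker genes of cell types, oligodendrocyte genes had regions at 0, 7 and 7 of 7 genes in replicates 1, 2 and 3, and neuronal genes at 1, 1 and 5 of 5 and astrocyte genes at 0, 0 and 3 of 5. The microglial genes Cx3cr1, P2ry12, Tmem119, Csf1r, Aif1 and Itgam had no region in any replicate. Endothelial and mural genes had 0 of 4 in each replicate. Hox genes of the spinal axis had 1, 2 and 5 of 8. Over all coding genes, 1.51%, 5.17% and 31.5% had a region in replicates 1, 2 and 3. A region marks precipitated chromatin and does not give expression, and which cells carried the regions of the Kruppel-like factor genes was not tested.

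Of the 10 Kruppel-like factor genes, 8 carried at least 1 region and 6 carried regions in at least 2 replicates. Klf9 was the only member with a region in all 3 replicates. Replicate 1 had regions at 2 members (Klf6 and Klf9), where 1.51% of all coding genes had 1. Replicate 2 had regions at 5 members (Klf3, Klf7, Klf9, Klf10 and Klf13), against 5.17% of coding genes. Replicate 3 had regions at 8 members (these 6 with Klf4 and Klf15), against 31.5% of coding genes. In at least 2 replicates the members' count was 6 of 10, against 5.43% of coding genes, and in all 3 it was 1 of 10, against 0.836%. Klf2 and Klf12 had 0 regions in any replicate. The count of 6 rests on the larger lists. It was 5 without replicate 1, against 4.84% of coding genes with a region in both remaining replicates. It was 2 without replicate 2, against 1.4%, and 1 (Klf9) without replicate 3, against 0.859%. Since the series has a single group and the members were chosen with earlier results known, these counts are set beside the background and carry no test.

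By cofactor group, set after these values were seen, all 3 members that recruit Sin3 (Klf9, Klf10 and Klf13) had regions in at least 2 replicates, beside the same 5.43% of coding genes. At a q of 1e-05 or less this held for 2 of the 3 (Klf9 and Klf10), against 2.36% of coding genes. At a fold of 5 or more it held for 1 (Klf9), against 1.04%. Of the 2 that recruit CtBP, Klf3 had regions in replicates 2 and 3 and Klf12 had none. Of the 4 activators, Klf6 and Klf7 had regions in at least 2 replicates, Klf4 in replicate 3 alone, and Klf2 in none. Klf15, which fits none of these groups, had a region in replicate 3 alone. The groups hold members only. The other Klf genes were not sorted by cofactor, so a group need not hold every Klf gene that recruits its cofactor. Of the 7 other Klf genes, 0 had a region in replicate 1 or 2, against 1.51% and 5.17% of coding genes. In replicate 3, 2 of the 7 (Klf11 and Klf16) had regions, near the background of 31.5%.

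The promoter sequences of Klf9, Klf13, Klf3 and Klf6 are shown because a summit, the point of highest enrichment within a region, fell inside the 250 bases before their RefSeq starts. Klf10 also had such a summit, at -217 bp in replicate 3, but the RefSeq promoter table has no entry for it. The promoter of Klf2 is shown as the contrast, a member with no region. The windows are chr19:23140976-23141225 (+) for Klf9, chr7:63938916-63939165 (-) for Klf13, chr5:64803271-64803520 (+) for Klf3, chr13:5861239-5861488 (+) for Klf6 and chr8:72318812-72319061 (+) for Klf2, from RefSeq on GRCm38.p6. Each runs 5′ to 3′ in the direction of the gene, and capitals mark CACCC and GGGCGG on either strand, the letters that Kruppel-like and Sp factors are known to bind.
Klf9: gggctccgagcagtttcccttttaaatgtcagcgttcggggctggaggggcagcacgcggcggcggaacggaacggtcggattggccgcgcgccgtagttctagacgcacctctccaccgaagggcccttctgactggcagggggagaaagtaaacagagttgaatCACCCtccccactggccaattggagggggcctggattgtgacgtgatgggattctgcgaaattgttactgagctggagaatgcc
Klf13: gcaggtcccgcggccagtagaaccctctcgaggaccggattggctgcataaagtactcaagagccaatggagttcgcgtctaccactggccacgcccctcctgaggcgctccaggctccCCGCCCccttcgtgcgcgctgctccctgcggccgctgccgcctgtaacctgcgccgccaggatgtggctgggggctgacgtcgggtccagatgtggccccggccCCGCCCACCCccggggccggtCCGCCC
Klf3: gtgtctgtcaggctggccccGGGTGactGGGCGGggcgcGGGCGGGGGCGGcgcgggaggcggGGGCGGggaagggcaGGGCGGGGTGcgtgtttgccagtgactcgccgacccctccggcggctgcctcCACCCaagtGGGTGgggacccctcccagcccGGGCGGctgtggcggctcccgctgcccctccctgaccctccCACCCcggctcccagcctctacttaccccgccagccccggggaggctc
Klf6: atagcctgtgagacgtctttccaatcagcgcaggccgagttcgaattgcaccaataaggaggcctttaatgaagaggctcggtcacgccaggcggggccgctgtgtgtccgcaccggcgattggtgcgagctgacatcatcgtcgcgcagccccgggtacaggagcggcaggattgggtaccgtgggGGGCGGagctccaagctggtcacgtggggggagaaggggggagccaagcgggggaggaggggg
Klf2: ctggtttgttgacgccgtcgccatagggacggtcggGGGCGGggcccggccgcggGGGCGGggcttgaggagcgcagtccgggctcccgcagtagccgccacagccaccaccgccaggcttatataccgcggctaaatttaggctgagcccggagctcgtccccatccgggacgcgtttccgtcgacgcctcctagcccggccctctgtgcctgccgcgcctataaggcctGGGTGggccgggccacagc

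TGTGGT and TGCGGT, forms of the core bound by RUNX proteins, were absent, on either strand, from all 9 member promoters of the RefSeq table. The promoters were read from 250 bases before to 50 after each start. Among all 32851 promoters of that length, 22.4% held either of these letters. An absence says only that these letters are not in this window, and other forms of the core were not searched. CACCC was present in 7 of the 9 (Klf2, Klf3, Klf7, Klf9, Klf12, Klf13 and Klf15), against 57.5% of all promoters, and GGGCGG in 7 (Klf2, Klf3, Klf4, Klf6, Klf7, Klf13 and Klf15), against 35.7%. The motifs can overlap, as they do in the Klf3 and Klf13 promoters. The letters CACGTG, an E-box, were present in 3 (Klf4, Klf6 and Klf15), against 7.15%. The members' promoters were rich in G and C, with a median of 69.3% over the 9, against 56.3% over 21263 promoters of coding genes. Promoters of coding genes with a region in replicate 3 had a median of 61.0%, and those of coding genes without a region 53.7%. Within the 250 bases before the start, Klf12 had the lowest G and C content (48.0%), while the other 8 had between 59.2% and 78.4%. The start used for Klf12, at 100149796 on the minus strand, lies inside the gene, which extends to 100285891. Its window is therefore not at the 5′ end of the gene, and the sequence there was not read. Klf2 has no region but 71.2% G and C, so this content does not separate it from the members that have regions.

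Klf9, a factor induced by glucocorticoid and thyroid hormone, carried the strongest region of the members in replicates 1, 2 and 3. The authors' fold over background at its strongest summit was 4.28 in replicate 1, from a pileup of 24 fragments (95% exact Poisson interval of the fold 2.80 to 6.28). It was 5.44 in replicate 2, from 33 fragments (interval 3.79 to 7.57), and 8.93 in replicate 3, from 88 fragments (interval 7.19 to 11.0). These intervals cover counting error only, and sequenced fragments without molecular identifiers are not independent molecules. Each fold describes a region within its own list, where Klf9 stood at the 30.4, 89.8 and 98.1 percentile of fold in replicates 1, 2 and 3, so in replicate 1 it was below the median of that list. In replicate 1 its fold and the 4.19 of Klf6, the other member there, differed by far less than their intervals.

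The 3 Klf9 regions lay over the same stretch of promoter. On chromosome 19 they ran from 23140830 to 23141078 in replicate 1, from 23140832 to 23141345 in replicate 2 and from 23140472 to 23143820 in replicate 3 (GRCm38). Their strongest summits lay at -274, -213 and -300 bp from the RefSeq start in replicates 1, 2 and 3 (negative before the start), so that of replicate 2 is inside the printed window and the others lie just before it. The summits of replicates 1 and 2 were 61 bp apart, those of replicates 1 and 3 were 26 bp apart and those of replicates 2 and 3 were 87 bp apart. The first region lay wholly within that of replicate 3 and the second did too.

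In replicate 3 the Klf9 region spread into the gene, over 3349 bp with 7 summits, which placed it at the 98.9 percentile of width. Only 1.27% of the regions of replicate 3 were 3000 bp or wider. Its summits beyond the start had folds between 3.22 and 4.80, well under the 8.93 of the promoter summit, and the median over its 7 summits was 3.99. A pair of narrow regions followed in the promoter class of 2 to 3 kb and in the intron, with summits 3064 and 3748 bp after the start and folds of 3.25 and 3.29. Further into the gene, 2 regions were assigned to the microRNA gene Mir1192, with folds of 4.30 and 2.96.

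**Figure D1:**
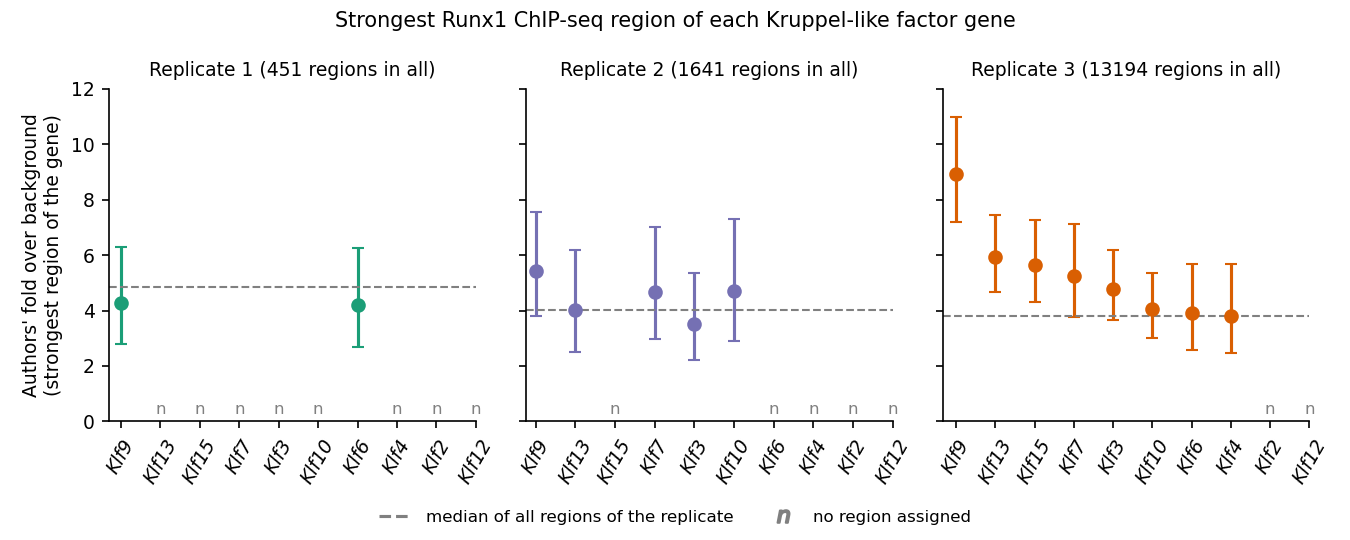
Authors' fold over background at the strongest region of each Kruppel-like factor gene in replicates 1, 2 and 3 (panels left to right), with exact 95% Poisson intervals from the summit pileup as bars. The dashed line is the median fold of all regions of that replicate, and n marks a gene with no assigned region. Klf9 is highest in each panel, and Klf2 and Klf12 have no region in any.

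Klf13, known from control of chemokine genes in T cells, had a fold of 4.03 in replicate 2 (interval 2.50 to 6.17, pileup 19) and 5.94 in replicate 3 (interval 4.66 to 7.46, pileup 72). Those 2 regions overlapped over the whole length of the first, 63938915 to 63939447 on chromosome 7. Their strongest summits lay at -86 and -60 bp from the start, 26 bp apart, both in the printed window, where GGGCGG on the opposite strand begins at -131, -27 and -6. Replicate 3 had 3 more regions of Klf13, with summits 1067, 2456 and 13783 bp after the start and folds of 4.63, 3.27 and 4.07. In replicate 3, 4 members had at least 2 regions, against 8.02% of coding genes, and 3 had at least 3 (Klf7, Klf9 and Klf13), against 3.35%. Klf7 and Klf13 had 4 each, against 1.82% of coding genes with at least 4.

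Inside the Klf13 gene another region, assigned by the authors to the non-coding RNA gene Gm27252, was as high as the strongest regions of the members. It lay on chromosome 7 from 63896768 to 63897554 in replicate 3, with a fold of 8.64 (interval 6.88 to 10.7, pileup 81), the 97.8 percentile of its list. In replicate 1 a region from 63896936 to 63897278 within it had a fold of 3.49 (interval 2.20 to 5.30, pileup 20), at the 4.55 percentile. Replicate 2 had no such region inside Klf13. Counted by gene body with 1 kb on either side, Klf13 therefore joined Klf9 with a region in all 3 replicates, against 1.17% of coding genes. Unlike those of Klf9, the regions of replicates 1 and 2 lay at different sites in Klf13, the latter at the promoter.

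Klf10, first described as an early gene induced by transforming growth factor beta, had a promoter region in replicates 2 and 3. Its fold was 4.71 in replicate 2 (interval 2.89 to 7.30, pileup 18) and 4.05 in replicate 3 (interval 3.00 to 5.36, pileup 47). The region of replicate 2 ran from 38300819 to 38301276 on chromosome 15 and lay wholly within that of replicate 3, with summits at -296 and -217 bp from the start. A further region of replicate 3 had a summit 1540 bp after the start and a fold of 3.89. The lncRNA gene Gm35248 overlaps all 3 of these regions, so they cannot be given to Klf10 alone.

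Klf3, a repressor that works through CtBP, had summits at almost the same base in both larger lists. They lay at -125 and -127 bp from the start in replicates 2 and 3, 2 bp apart, in a stretch of the printed window where CACCC begins at -120 and, on the opposite strand, at -111. The fold was 3.53 in replicate 2 (interval 2.22 to 5.37, pileup 20), at the 23.9 percentile, and 4.79 in replicate 3 (interval 3.66 to 6.17, pileup 58), at the 75.8 percentile. The region of replicate 2 spanned 64803283 to 64803707 on chromosome 5 and that of replicate 3 spanned 64803146 to 64804810. The predicted gene Gm38457 overlaps both regions.

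Klf12, the other member that recruits CtBP, had no region in any replicate. Its gene covers 419711 bp of chromosome 14, the longest of the members, and the nearest region of replicate 3 lay 175572 bp away. Of coding genes, 21.4% were at least this far from a region of replicate 3, so the distance is not unusual. In replicates 1 and 2 the nearest regions were 3063652 and 3365964 bp away.

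Klf6, an activator known from axon growth, had regions in replicates 1 and 3 but none in replicate 2. In replicate 1 the region ran from 5861312 to 5861576 on chromosome 13, with a fold of 4.19 (interval 2.70 to 6.25, pileup 22). In replicate 3 it was 3141 bp wide with 8 summits, from 5860627 to 5863767, and its highest fold was 3.90 (interval 2.58 to 5.69, pileup 25), at a summit 2137 bp after the start. The summit of replicate 1, at -79 bp from the start, had a close counterpart in a summit of replicate 3 at -80 bp, 1 bp away.

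That promoter summit of Klf6 had the highest pileup of the region, 66 fragments, but a fold of only 3.37. The background level there was 18.9, against 4.64 to 9.08 at the other 7 summits. Of the 20564 summits of replicate 3, 4 had a higher background. For Klf6 the order of summits by fold thus differs from that by pileup. At Klf9 the promoter summit was highest by both, with 88 fragments over a background of 8.96.

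**Figure D2:**
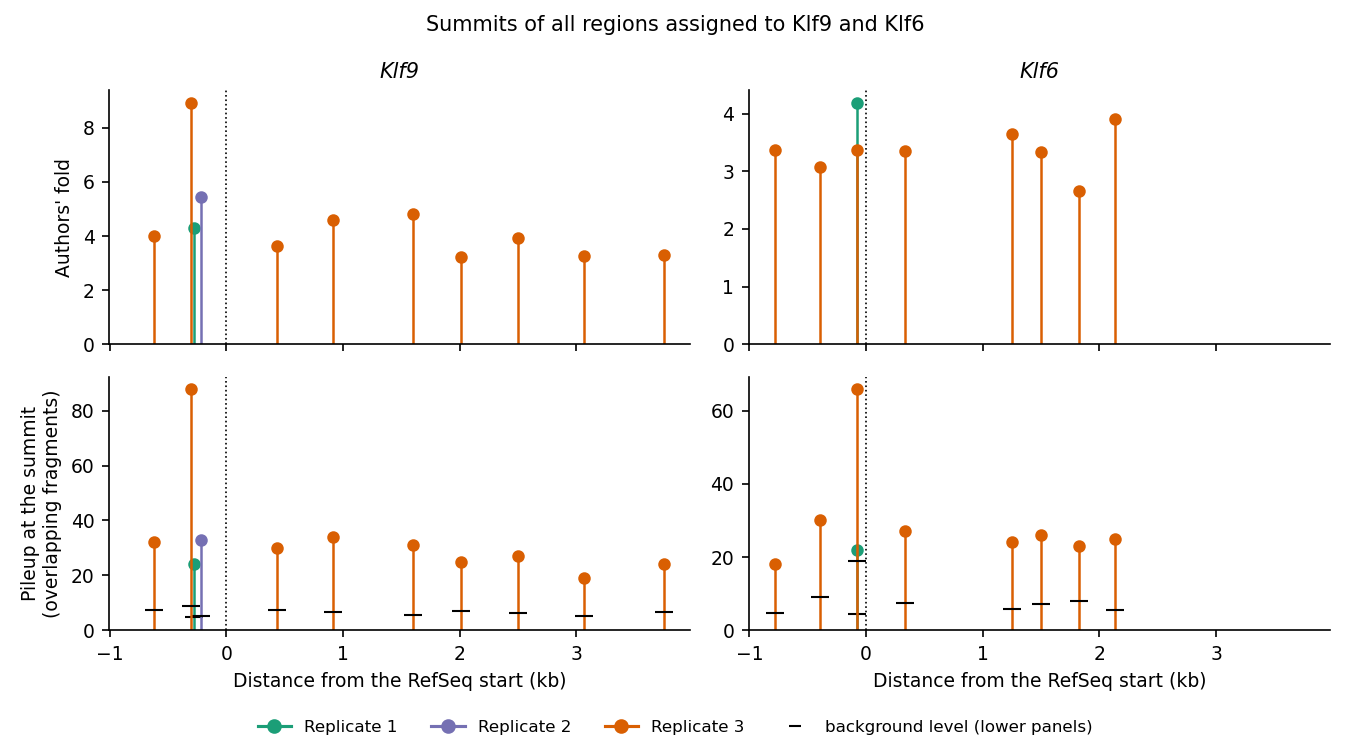
Summits of the regions of Klf9 (left) and Klf6 (right) by distance from the RefSeq start in kb, with the authors' fold (upper panels) and the pileup in fragments (lower panels, black dashes for the background level), coloured by replicate. The promoter summit of replicate 3 stands out by fold and pileup at Klf9 (8.93 and 88), and by pileup alone at Klf6 (66, with a fold of 3.37).

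Klf7, an activator of neuronal development and axon growth, had 2 regions in replicate 2 and 4 in replicate 3, on either side of the start used here. In replicate 2 they had folds of 4.45 (interval 2.80 to 6.76, pileup 20) and 4.67 (interval 2.97 to 7.03, pileup 21), with summits at 128 and -596 bp from the start. Each lay wholly within a region of replicate 3, with folds there of 4.40 and 3.85. The strongest Klf7 region of replicate 3, from 64118921 to 64119680 on chromosome 1, had a fold of 5.26 (interval 3.78 to 7.14, pileup 39) and overlapped no region of replicate 2. It lay in the promoter class of 1 to 2 kb with its summit 1971 bp after the start, and the intronic region beyond it had a fold of 3.68. The regions before the start used here overlap the lncRNA gene Gm35880. They also overlap Klf7 itself, which on the minus strand extends past that start (64121389) to 64122345. Inside the Klf7 gene 3 more regions of replicate 3 went to other genes, Gm26649 with a fold of 4.40 and Gm13748 with folds of 2.84 and 2.97.

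Klf4, a factor of pluripotency and of monocyte differentiation, had a single weak region in replicate 3. It ran from 55532643 to 55533210 on chromosome 4, before the start, with a fold of 3.81 (interval 2.45 to 5.68, pileup 22) at the 49.5 percentile. The lncRNA gene Gm12506 overlaps it.

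Klf2, an activator known from endothelial and T-cell quiescence, had no region in any replicate. The nearest region of replicate 3 lay 78774 bp from the gene on chromosome 8 and was assigned to Ap1m1, with a fold of 2.98. In replicates 1 and 2 the nearest regions were 726571 and 157824 bp away. Of coding genes, 33.0% were at least as far from a region of replicate 3 as Klf2. A gene without a called region was not shown to lack binding.

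Klf15, a glucocorticoid-responsive regulator of metabolism, was the strongest of the members seen in replicate 3 alone. Its region ran from 90462977 to 90464010 on chromosome 6, wholly after the start used here, with a fold of 5.65 (interval 4.32 to 7.28, pileup 58) at the 87.0 percentile. Of the 359 other regions of replicate 3 with a −log10 q within 10% of its 22.6, 37.9% overlapped a region of replicate 2 and 12.5% a region of replicate 1. For the Klf9 promoter region the shares of 68 regions of like −log10 q were 57.4% and 32.4%. For Klf4 they were 3.93% and 0.857% of 1401 regions. Overlap with replicate 2 was the more common outcome only at the strength of Klf9. The strongest regions of Klf13, Klf3 and Klf10 overlapped replicate 2, where 43.6%, 29.2% and 18.8% of regions of like strength did so. That of Klf7 did not, where 23.1% did. That of Klf6 overlapped replicate 1, where 1.71% of like regions did, and not replicate 2, where 5.28% did. For Klf6 the likeness was to its summit of highest fold, 2137 bp after the start, with a −log10 q of 6.3. Its summit at -80 bp, where replicate 1 overlapped, had 13.5, so the 1.71% comes from weaker regions than that summit.

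Ordered by fold within replicate 3, the members ran Klf9, Klf13, Klf15, Klf7, Klf3, Klf10, Klf6 and Klf4, with values from 8.93 to 3.81. The intervals of neighbours overlapped throughout, including those of Klf9 (7.19 to 11.0) and Klf13 (4.66 to 7.46). The interval of Klf9 lay above those of Klf7, Klf3, Klf10, Klf6 and Klf4. The median over the 8 strongest member regions was 5.03, against 3.81 over all regions of that replicate, but the strongest of up to 4 regions was taken for each gene. Over all 17 member regions the median was 4.05. In replicate 2 the order was Klf9, Klf10, Klf7, Klf13 and Klf3, from 5.44 to 3.53, and all of these intervals overlapped.

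Where a member had regions in more than 1 replicate, at least some of them overlapped. All 8 member regions of replicates 1 and 2 lay over a region of replicate 3, and each of them lay wholly within it. Over the whole lists 94.7% of the regions of replicate 1 and 92.1% of those of replicate 2 overlapped replicate 3, so this is near the background. Of the 10 members, 6 had overlapping regions in at least 2 replicates, against 5.14% of coding genes. This count was 5 without replicate 1, 2 without replicate 2 and 1 without replicate 3, against 4.57%, 1.35% and 0.804% of coding genes. With at least 50% of both regions shared it was 3 (Klf7, Klf10 and Klf13), against 2.51%. With strongest summits within 200 bp it was 5 (Klf3, Klf7, Klf9, Klf10 and Klf13), a limit not applied to all coding genes. The strongest summits of Klf6 in replicates 1 and 3 lay 2216 bp apart. The Klf9 regions of replicates 1 and 2 overlapped each other over 247 bp, as did 55.2% of all regions of replicate 1 with replicate 2.

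**Figure D3:**
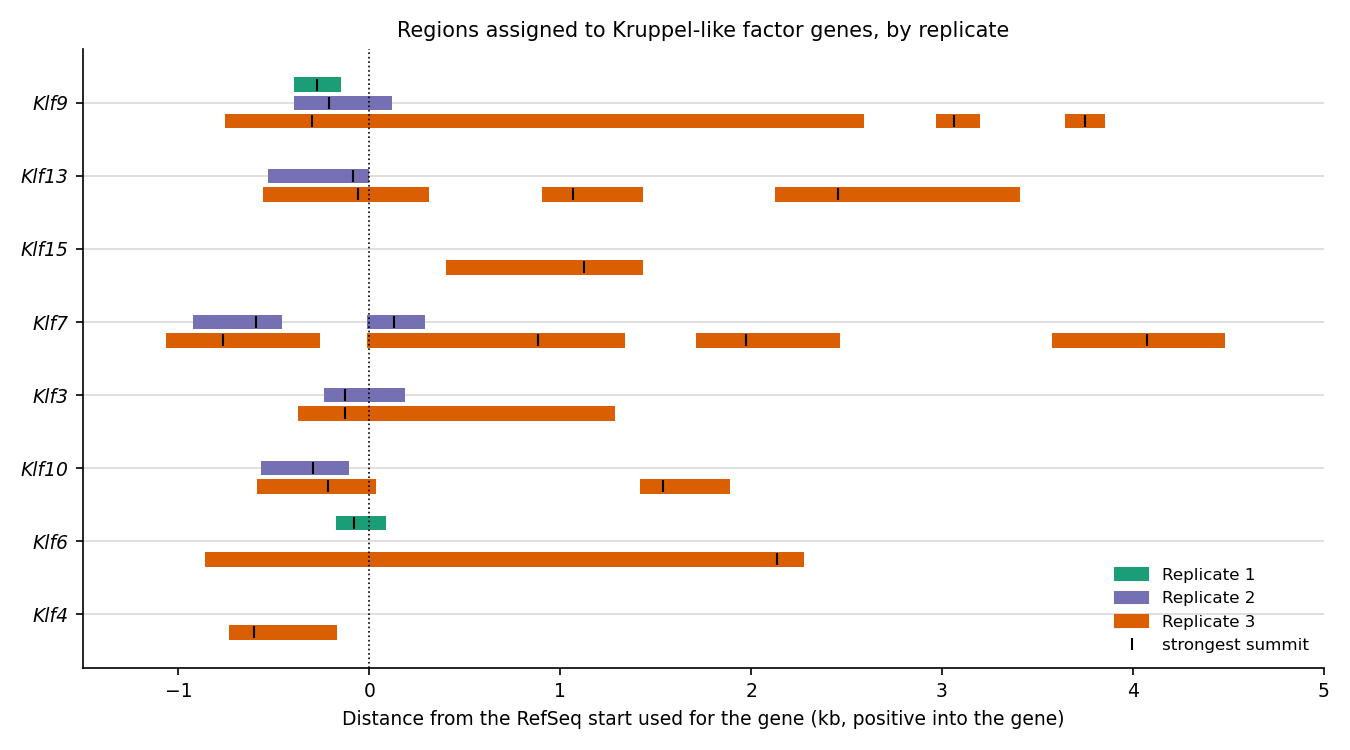
Regions assigned to each Kruppel-like factor gene as bars, by distance in kb from the RefSeq start used for that gene, with positive values into the gene and a black tick at the strongest summit. Replicates are coloured, genes are ordered by fold in replicate 3, and a Klf13 region with its summit 13783 bp after the start lies outside the axis. Each bar of replicates 1 and 2 lies within a bar of replicate 3.

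Nearly all regions were promoter regions by the authors' annotation, which uses the nearest start of any transcript. The class within 1 kb of a start held 2 of 2, 6 of 6 and 13 of 17 member regions in replicates 1, 2 and 3, or 76.5% in replicate 3. Over all regions the class held 82.7%, 71.4% and 62.6% in replicates 1, 2 and 3, so that the few member regions of replicates 1 and 2 are close to their lists. By this class alone the members with a region numbered 2, 5 and 8 in replicates 1, 2 and 3, against 1.38%, 4.35% and 28.4% of coding genes. In at least 2 replicates they numbered 6, against 4.58% (6 with overlap, against 4.39%), and in all 3 replicates 1, against 0.722%. With the RefSeq start used here for each gene, 7 of the 17 had their strongest summit within 1 kb. Member regions of replicate 3 had a median width of 806 bp, against 470 bp over all of its regions. Of the 17, 11 held more than 1 summit. Neither this count nor that of 7 was made over all regions, so no background share stands beside them. These 17 held 43 summits in all, and the 13194 regions of replicate 3 held 20564.

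Klf9 was the only member with regions in at least 2 replicates under each of 3 stricter limits. At a q of 1e-05 or less, 1, 3 and 8 members had a region in replicates 1, 2 and 3, against 0.941%, 2.08% and 22% of coding genes. The members of replicate 2 were then Klf7, Klf9 and Klf10. By that limit 3 members had regions in at least 2 replicates, against 2.36% (3 with overlap, against 2.32%), and Klf9 in all 3, against 0.425%. At a fold of 5 or more, the counts were 0, 1 (Klf9) and 4 (Klf7, Klf9, Klf13 and Klf15) in replicates 1, 2 and 3, against 0.713%, 0.882% and 8.5% of coding genes. That left 1 member in at least 2 replicates, against 1.04% (1 with overlap, against 0.996%), and 0 in all 3, against 0.228%. With each list limited to its 451 regions of lowest q, 2 members had a region in each replicate, against 1.51%, 1.49% and 1.52% in replicates 1, 2 and 3. Klf9 alone was then in at least 2 replicates and in all 3, against 0.95% and 0.26% of coding genes, and alone with overlap, against 0.905%. With replicate 3 alone limited, to the 1641 regions of replicate 2, it had 4 members (Klf3, Klf9, Klf13 and Klf15), against 5.6% of coding genes. Then 3 members had regions in at least 2 replicates, against 2.86%, and 3 with overlap, against 2.68%.

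Of the other 16 genes of the SP/KLF family, 0, 2 and 8 had regions in replicates 1, 2 and 3, against 1.51%, 5.17% and 31.5% of coding genes. Among the 7 other Klf genes only Klf11 and Klf16 had any, each in replicate 3, with folds of 3.78 and 3.15, while Klf1, Klf5, Klf8, Klf14 and Klf17 had none. Of the 9 Sp genes, Sp1 and Sp9 had regions in replicates 2 and 3. Sp1, a general activator of GC-rich promoters, had folds of 3.62 and 5.99 at its promoter. Sp9, a factor of forebrain interneurons, had a region with a fold of 5.54 in its 3′ UTR in replicate 2, while its strongest region of replicate 3 lay at the promoter with 3.84. Sp2 and Sp4 had folds of 7.37 and 6.19 in replicate 3, above every member but Klf9. The difference between the members and the rest of the family was not tested, because the members were chosen with results known.

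Cofactors of these proteins had regions mainly in replicate 3. Of 9 genes, 0, 1 and 7 had regions in replicates 1, 2 and 3, against 1.51%, 5.17% and 31.5% of coding genes. The deacetylase gene Hdac1 had folds of 4.19 and 3.41 in replicates 2 and 3. In replicate 3 the corepressor gene Ctbp1 had a fold of 6.56, and the acetyltransferase genes Crebbp and Kat2b had folds of 5.61 and 5.58. Ctbp2 and Sin3b had no region.

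The kinase and MEF2 genes that lie upstream of Klf2 and Klf4 had regions at 1, 1 and 4 of 5 genes. Klf2 itself had none, and over all coding genes 1.51%, 5.17% and 31.5% had a region in replicates 1, 2 and 3. Mef2a had folds of 3.58 and 5.42 in replicates 1 and 3, and Mef2d 3.21 and 7.76 in replicates 2 and 3, in intergenic sequence. The kinase gene Mapk7 had a fold of 5.93 and Mef2c of 4.09, each in replicate 3 alone.

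The glucocorticoid response is known to induce Klf9 and Klf15. Of 7 of its genes, 1, 3 and 7 had regions in replicates 1, 2 and 3, against 1.51%, 5.17% and 31.5% of coding genes. This list was chosen with earlier results known, and a link to the regions of Klf9 and Klf15 was not tested. Zbtb16, a zinc-finger gene, had folds of 7.82, 5.97 and 11.3 in replicates 1, 2 and 3, all in introns. The clock gene Per1 had folds of 6.52 and 9.98 in replicates 2 and 3, and the kinase gene Sgk1 had 3.84 and 6.84. Fkbp5, a chaperone gene of the glucocorticoid receptor, had a fold of 6.44 in replicate 3. Nr3c1, which encodes the receptor itself, had a fold of 6.28 in replicate 3.

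**Figure D4:**
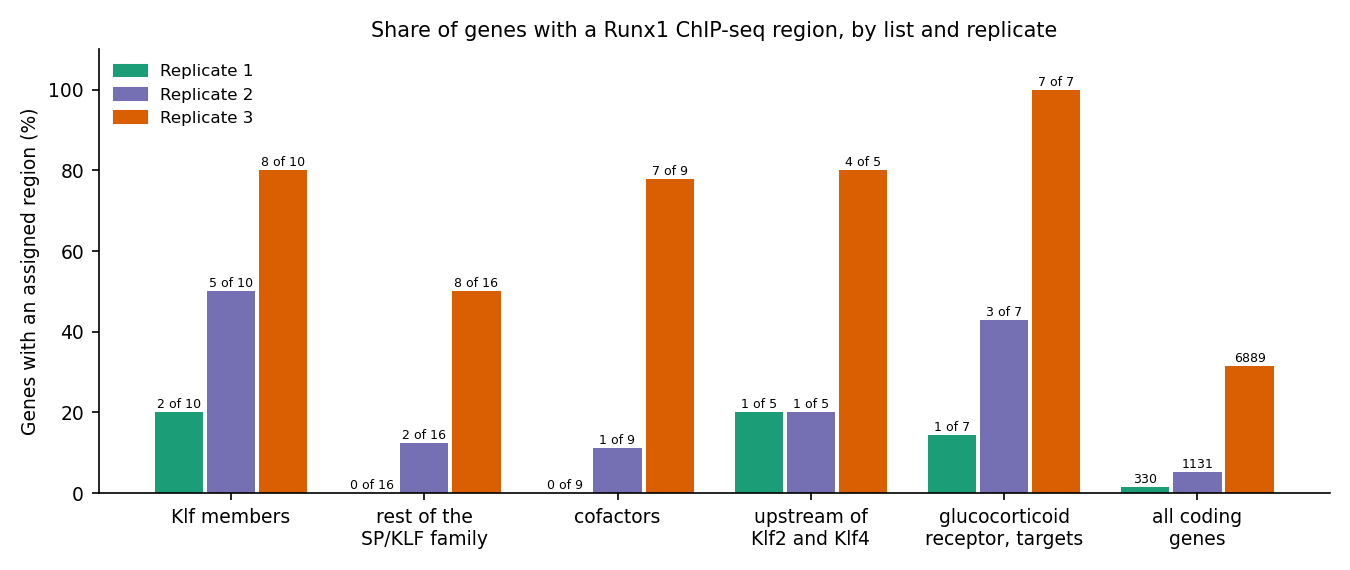
Share of genes with an assigned region (%, bars from 0) in each list and over all 21887 coding genes, by replicate, with counts above the bars. The Kruppel-like factor members had 2, 5 and 8 of 10 in replicates 1, 2 and 3, and the rest of the SP/KLF family 0, 2 and 8 of 16.

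The coding genes whose pattern was most like that of Klf9 were Jun, 4933434E20Rik, Tcf3, Hacl1 and Mylpf. Likeness was the largest difference in percentile of fold over replicates 2 and 3, in which at least 5 members had regions, among 1055 coding genes outside the family with regions in both. Jun, a subunit of the AP-1 transcription factor, was closest, with a largest difference of 0.67 percentile points and folds of 5.49 and 8.44, beside 5.44 and 8.93 for Klf9. For the other 4 the largest difference was 0.826 to 1.13 percentile points. With 2 replicates and so many genes compared, such near matches are easily found.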

How the data were processed

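Each replicate has a deposited list of summits and an annotated table of regions. Per the submitters' processing notes, the tools were Trimmomatic 0.38, FastQC, Bowtie2, SAMtools 1.9, Picard 2.18.26 and MACS2 2.1.2, with build GRCm38. Their parameters and any control library, not given in the sources used here, can change which regions are called. For each summit the deposited lists hold the authors' score, a ratio (fold over background), 2 values of −log10 type (for p and for q) and the offset of the summit. The authors' tables give a class, a gene and a distance per region. Starts are given here from 1.

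A region took the fold of its strongest summit. Fold and −log10 p together were solved under a Poisson model, 1 being added to pileup and background, for a whole-number pileup, within 0.001 in −log10 p. This succeeded for 100% of summits, with 1 summit having more than 1 solution. Intervals are 95% exact Poisson. Relative depth is the lowest background divided by the narrowest region, set to 1 in replicate 1.

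Coding genes came from RefSeq (GRCm38.p6), and 98.8%, 99.7% and 99.1% of the symbols of replicates 1, 2 and 3 matched. The 10 members and the gene lists were chosen with earlier results of these data known. Named were all members, up to 4 genes per list (those with regions in most replicates first), and the 5 genes closest to Klf9. "Most members" was read as at least 5 of 10. Klf11, Klf16, Nr3c1, the genes inside or over members and the listed genes without a region were named outside that rule after their values were seen, and the cofactor groups were set then too. Starts were those of the RefSeq promoter table, and for Klf10 of the gene table. Those of Klf7, Klf12 and Klf15 lie inside the full RefSeq extent of the gene. All 3 replicates are 1 group, so no test was run. Alternatives were stricter limits on q (1e-05) and fold (5), equal list lengths, the promoter class, gene bodies with 1 kb around them, other definitions of overlap, median summit folds and leaving out each replicate. Of the listed marker genes, 1 is not reported here. Scripts were tested on simulated data. Software was Python 3.11.15 with numpy 2.4.6, pandas 2.3.3, scipy 1.17.1 and matplotlib 3.10.9.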

Additional observations from a re-analysis of the deposited data

How the results depend on the processing

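No paired analysis was possible because the series has 1 group. The reported counts of members with a region were 2, 5 and 8 in replicates 1, 2 and 3, 6 in at least 2 replicates (6 with overlap as well) and 1 in all 3. They did not move with the promoter class alone. At a q of 1e-05 or less, they were 1, 3 and 8 in replicates 1, 2 and 3, and 3 in at least 2 replicates, also 3 with overlap. At a fold of 5 or more, they were 0, 1 and 4, with 1 in at least 2 replicates, 1 with overlap and 0 in all 3. With every list held to 451 regions by q, the counts were 2, 2 and 2, with 1 in at least 2 replicates and 1 with overlap. The background fell too, to 1.49% and 1.52% of coding genes in replicates 2 and 3. With replicate 3 limited to 1641 regions, an alternative chosen after the data were seen, it had 4 members (against 5.6% of coding genes), and 3 had regions in at least 2 replicates (against 2.86%), 3 with overlap (against 2.68%). By gene body the count in all 3 replicates was 2 (against 1.17% of coding genes), through the region assigned to Gm27252. That region lay apart from the Klf13 region of replicate 2. Requiring 50% of both regions to overlap left 3 members (Klf7, Klf10 and Klf13), against 2.51% of coding genes. Klf9 missed this limit in every pair of replicates. Its region of replicate 1 covered 48.1% of that of replicate 2 and 7.44% of that of replicate 3. Its region of replicate 2 covered 15.3% of that of replicate 3. Leaving out each replicate gave 1 to 5 members in at least 2 replicates, 1 to 5 with overlap and 1 to 5 in all remaining replicates. The median over summits lowered the Klf9 fold of replicate 3 to 3.99, and the other 14 folds stayed within their counting intervals. Shallow pileups, 18 to 33 fragments in replicates 1 and 2, limit the order of members by fold.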
